A study of Mus musculus with 16 samples.

Results

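Genes of the enriched hippocampus were compared between mice heterozygous for a CBP deficiency, written cbp+/-, and their wild-type littermates. Of the 16 arrays of the series, 6 belong to this comparison: 3 titled as cbp+/- with environmental enrichment (CBP_EE_1 to CBP_EE_3) and 3 titled as wild type with environmental enrichment (WT_EE_1 to WT_EE_3). All animals were females of 3 months from an F2 generation between C57BL/6J and DBA, and all of the 6 pools lived for 2 weeks in large boxes with running wheels, toys and tubing that were rearranged at intervals. Hippocampi were taken at least 16 h after the last rearrangement. RNA of 4 animals was pooled for each array, so the 6 arrays stand for 24 animals, and no animal can be seen on its own. The other 10 arrays came from the same genotypes in standard cages (5 CBP_SC and 5 WT_SC) and serve here for the estimate of spread and as the background in animals without enrichment. Same-numbered arrays were also compared as pairs. The labels do not name the allele. A heterozygote keeps 1 intact copy of the gene in every cell, so the comparison does not concern complete loss in a chosen cell type. How far the amount of CBP was reduced is shown neither by the labels nor by the arrays.

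CBP, encoded by Crebbp, is a lysine acetyltransferase that acetylates histones and other proteins and is recruited to promoters and enhancers by transcription factors such as CREB, which binds the cAMP response element (CRE) when phosphorylated after neuronal activity. Its close relative p300, encoded by Ep300, shares most of its domains. In the hippocampus, CREB and its coactivators are known for their part in activity-induced transcription and long-term memory, and enrichment is known to raise neurogenesis in the dentate gyrus and the expression of some growth factors.

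Values are log2 signals of Affymetrix Mouse Gene 1.0 ST arrays, whose probes lie along the whole transcript, and a difference is always cbp+/- minus wild type. Differences carry the standard error (SE) of the moderated limma fit, and adjusted p values are Benjamini-Hochberg values over all 21780 probe sets that name exactly 1 gene. Levels of different genes are not compared, since probe sets differ in brightness, except as medians over lists. The arrays differed in ways the genotypes do not explain. A principal component analysis of the 6 arrays put 62.6% of their variance on its main axis, which set replicate 3 of each genotype (27.2 for WT_EE_3 and 22.2 for CBP_EE_3) apart from the other 4 (-23.0 to -3.64). When all 16 arrays were clustered into 4 sets, the first and second replicates of both genotypes fell into one set, CBP_EE_3 into a set with the fifth standard-cage replicates, and WT_EE_3 stood alone. Of 857 genes in the lists described here, 34.7% had their lowest value of the 6 arrays on WT_EE_3 and 24.5% on CBP_EE_3. The interquartile range of log2 signals was 2.22, 2.37 and 2.37 on WT_EE_1 to WT_EE_3, 2.43, 2.37 and 2.53 on CBP_EE_1 to CBP_EE_3, and 2.47 to 2.65 in standard cages. Markers of the dissected tissue were bright: the median level was 8.20 over 17 genes of mature dentate granule cells and 8.23 over 12 genes of CA1 pyramidal cells, against 6.56 over all 19935 genes. The 19 choroid plexus genes had a median of 5.82, but the 13 neocortex genes had 8.02. These levels therefore do not set hippocampus apart from neighbouring cortex.

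Crebbp itself was not lower in the cbp+/- pools. Its log2 signal was 9.37, 9.33 and 9.37 on CBP_EE_1 to CBP_EE_3, and 9.25, 9.18 and 9.35 on WT_EE_1 to WT_EE_3. The cbp+/- arrays were the higher ones in 3 of 3 pairs, and the groups overlapped. The difference was 0.10 (SE 0.13, 95% interval -0.18 to 0.37, adjusted p = 0.976 by limma). In standard cages the cbp+/- pools were also higher, by 0.14 (SE 0.10), in 5 of 5 pairs. The probe set reads the whole transcript, and the labels do not say which part of the gene the allele removes, so this value is no full check of the genotype labels. Directions therefore rest on the titles of the arrays. Ep300 differed by -0.02 (SE 0.16), with a sign that turned when WT_EE_3 was left out (0.02) and in the fit that blocked on the 4 sets of arrays (0.13).

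Genes that lie beside Crebbp on chromosome 16 were listed because flanking DNA can travel with a targeted allele; its part in the values was not tested. Of 28 measured neighbours, 14 were higher and 14 lower in cbp+/-, with a median of -0.0039. Groups did not overlap in 2 of the 28 (10.7% over all genes). Also 2 had an unadjusted p under 0.05 by limma (5.43% over all genes). Trap1, the gene next to Crebbp, encodes a mitochondrial chaperone of the HSP90 family. It had log2 signals of 8.98, 8.88 and 8.88 in cbp+/- against 8.65, 8.79 and 8.38 in wild type, so that the groups did not overlap. Its difference was 0.31 (SE 0.09, adjusted p = 0.924, limma), higher in 3 of 3 pairs. Zfp263, a zinc finger gene of the same stretch, was higher by 0.21 (SE 0.08) in 3 of 3 pairs, with groups that overlapped. Zfp174, another zinc finger gene there, was lower in 3 of 3 pairs with no overlap (-0.11, SE 0.07). These 3 were picked after their values were seen.

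No gene passed the threshold. At an adjusted p under 0.05, limma called 0 of 21780 probe sets (0%), and the smallest adjusted p was 0.924. At an unadjusted p under 0.05 it listed 1139 probe sets (5.23%), 252 higher (1.16%) and 887 lower (4.07%) in cbp+/-. With the replicate number as a block, again 0 passed (0%), the smallest adjusted p was 0.294, and 2838 probe sets (13%) had an unadjusted p under 0.05. Over the 16 fits that each left out 1 array, 0 passed in every fit. The unadjusted count was 493 without CBP_EE_3, 679 without WT_EE_1 and 1826 without WT_EE_3. After quantile normalization 810 probe sets (3.72%) had an unadjusted p under 0.05. With array weights, 2474 probe sets passed the adjusted threshold. That fit weighted WT_EE_2 by 6.68 and CBP_EE_1 by 8.63, and the other 4 enrichment arrays by 0.261 to 0.984, so its contrast rests mostly on 1 array per genotype. In what follows no gene or list is said to have changed: values are given as measured, and in whole tissue fewer cells of a type and less RNA per cell cannot be told apart.

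Differences were small. The median of the absolute log2 difference was 0.073, and 95% of differences lay between -0.22 and 0.27. In all, 18 probe sets were higher by over 0.5 and 3 lower by as much, and 1 (Lcn2) passed 1. Groups did not overlap for 768 probe sets with cbp+/- higher (3.53%) and 1493 with cbp+/- lower (6.85%), together 10.4%. The difference was above 0 for 41.7% of probe sets. All 3 pairs were higher for 2532 probe sets (11.6%) and lower for 4085 (18.8%).

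The excess of lower genes followed the brightness of the probe sets. In the 5 dimmest of 10 equal classes of mean level, the median difference ran from -0.079 to -0.030, and in the 5 brightest from 0.0069 to 0.048. Pair 1 showed the same shape, from -0.13 in dim classes to 0.12 in the brightest, and so did pair 3. In pair 2 the medians lay between -0.00041 and 0.0090. After quantile normalization, which gives every array the same distribution, they lay between -0.014 and 0.0030. The interquartile ranges given above moved with this: WT_EE_1, with the narrowest range, belongs to pair 1. What part of any single gene's difference it makes up was not tested. Quantile-normalized values are given for some of the lists and rarely for single genes. The dim genes named below are given without them.

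**Figure D1:**
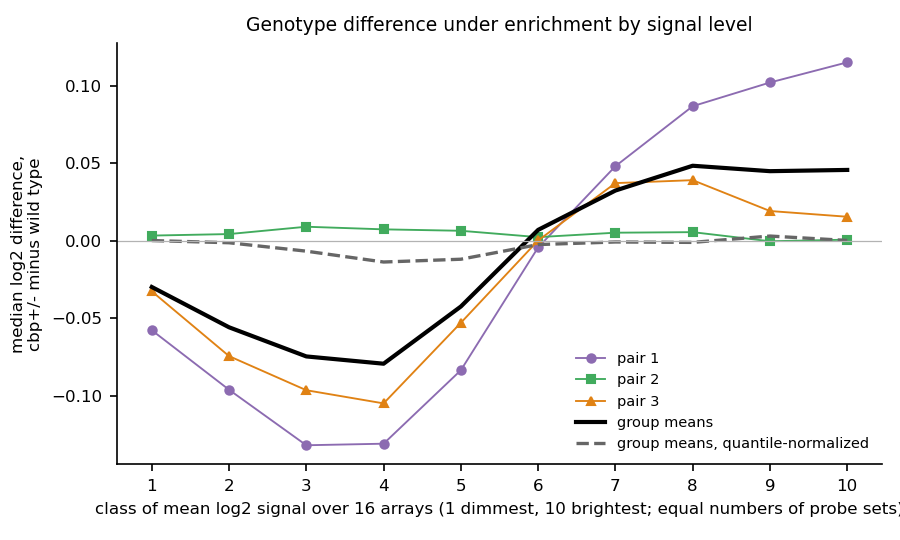
Median log2 difference (cbp+/- minus wild type, y axis) in 10 classes of mean log2 signal with 2178 probe sets each (x axis, dimmest to brightest), for the group means, for each same-numbered pair and for quantile-normalized group means. The group means run from below 0 in the dim classes to above 0 in the bright ones, pairs 1 and 3 carry that shape, and pair 2 and the quantile-normalized values stay near 0.

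Among the brighter genes that were higher in all 3 pairs, 12 are named here for the smallest p, a choice made on this contrast, so that their values are a description. The first was Pcdhb2, a clustered protocadherin of neuronal surfaces, with log2 signals of 7.42, 7.37 and 7.47 in cbp+/- and 6.81, 6.78 and 6.48 in wild type. Every cbp+/- array lay above every wild-type array, and the difference was 0.73 (SE 0.15, 95% interval 0.42 to 1.04, adjusted p = 0.924), or 1.66-fold. Fbxl20, an F-box subunit of a ubiquitin ligase that acts at presynaptic terminals, had 8.56, 8.45 and 8.54 against 8.13, 8.23 and 8.25. Slc6a20a, a transporter of proline and related imino acids, had 7.57, 7.60 and 7.23 against 7.02, 7.19 and 6.94. Neither overlapped between genotypes. Fbxl20 differed by 0.31 (SE 0.07) and Slc6a20a by 0.41 (SE 0.09).

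The other 9 are given by their roles. Ssr2, a subunit of the translocon-associated complex of the endoplasmic reticulum, had log2 signals of 8.95, 8.98 and 9.17 in cbp+/- and 8.53, 8.75 and 8.35 in wild type, a difference of 0.49 (SE 0.14). Trappc5, a subunit of the TRAPP tethering complexes, differed by 0.27 (SE 0.08), and Rab8a, a small GTPase of vesicle traffic, by 0.34 (SE 0.08). Sae1, a subunit of the enzyme that activates SUMO, was higher by 0.26 (SE 0.07), and Kbtbd4, a substrate adaptor of a cullin ubiquitin ligase, by 0.46 (SE 0.12). Nipsnap2, a mitochondrial protein, was higher by 0.28 (SE 0.07). Akr1a1, an aldehyde reductase, was higher by 0.23 (SE 0.06). Idnk, a gluconokinase, had 8.23, 8.09 and 8.28 against 7.75, 7.93 and 7.96, a difference of 0.32 (SE 0.08). Pisd-ps2, a pseudogene of the phosphatidylserine decarboxylase gene Pisd, was higher by 0.55 (SE 0.14), and its probes may share sequence with Pisd, which makes that value uncertain. All 12 had groups that did not overlap and an adjusted p of 0.924.

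On the lower side 12 genes are named by the same rule. Erbin, a scaffold protein that binds the receptor ErbB2, had log2 signals of 8.68, 8.59 and 8.61 in cbp+/- and 8.75, 9.08 and 9.24 in wild type, a difference of -0.40 (SE 0.11, 95% interval -0.64 to -0.15). Pcsk1, the prohormone convertase that cleaves neuropeptide and hormone precursors and is itself a known CREB target, had 7.62, 7.68 and 7.43 against 7.86, 7.88 and 7.88. The wild-type arrays of Pcsk1 were nearly equal (SD 0.011), and the difference was -0.30 (SE 0.09, 95% interval -0.50 to -0.096, adjusted p = 0.924), or 1.23-fold lower. Spred2, an inhibitor of the Ras-MAP kinase pathway, was lower by a difference of -0.32 (SE 0.11). Tgfbr1, the type I receptor for TGF-beta, differed by -0.28 (SE 0.09), and Rapgef1, an exchange factor for Rap GTPases, by -0.27 (SE 0.09). Npr3, the clearance receptor for natriuretic peptides, had a difference of -0.29 (SE 0.10).

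Insyn2a, a protein of inhibitory postsynaptic sites, differed by -0.18 (SE 0.06), and Ptprm, a receptor-type tyrosine phosphatase that mediates adhesion, by -0.22 (SE 0.08). Plpp4, a phospholipid phosphatase, stood at -0.26 (SE 0.09), and Htra4, a serine protease, at -0.34 (SE 0.12). Fam135b and Ccdc50 complete the 12 with -0.26 (SE 0.09) and -0.23 (SE 0.08). None of the 12 had overlapping groups. Over all brightness levels, the 3 lower genes with the smallest p were dim: Ptger4, a prostaglandin E receptor (5.63, 5.65 and 5.54 against 5.92, 5.83 and 5.84), Tnnc1, a troponin of slow muscle (-0.29, SE 0.06), and Myog, the muscle factor myogenin (-0.31, SE 0.06). Their levels lie below the median of all genes, and the standard-cage differences were -0.0049 and 0.052 for Tnnc1 and Myog.

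**Figure D2:**
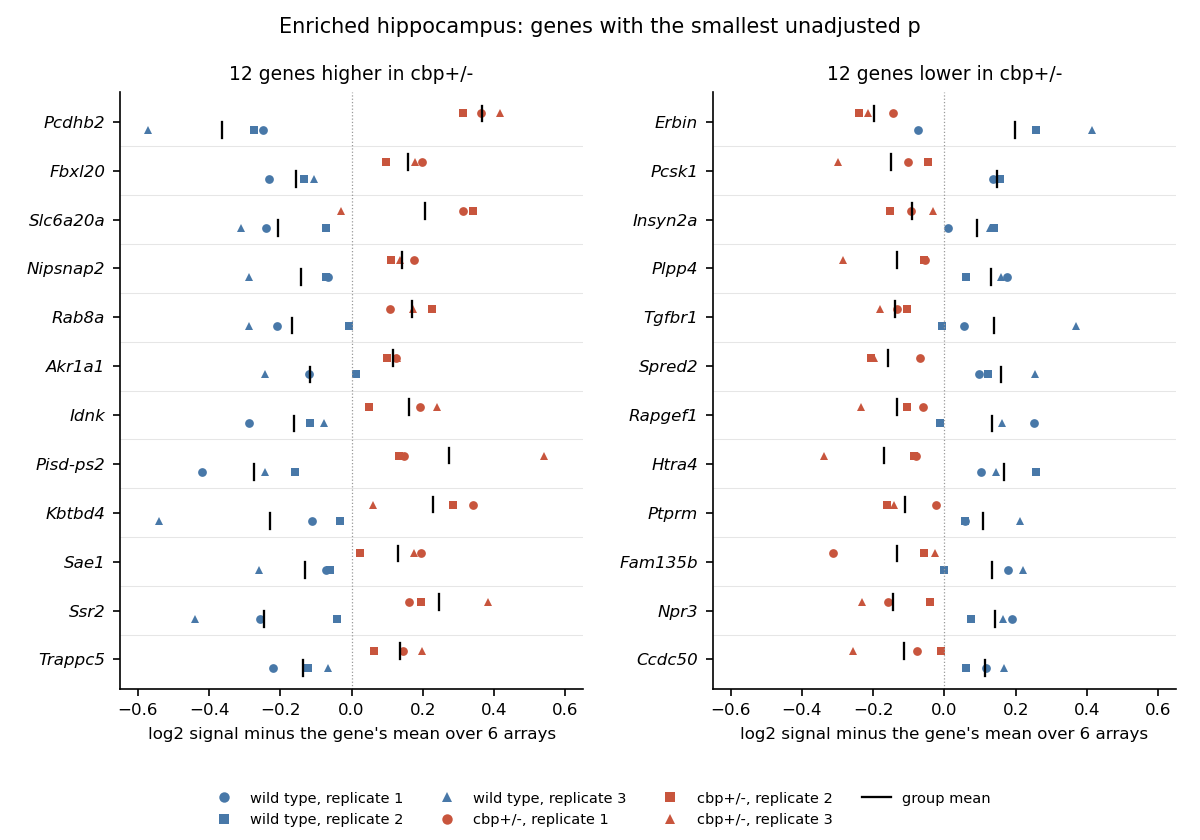
Log2 signal minus the gene's mean over the 6 enrichment arrays (x axis) for the 12 named genes higher (left) and the 12 lower (right) in cbp+/-; points are arrays, shapes are replicate numbers, colours are genotypes and black bars are group means of 3 arrays. In each of the 24 genes the 2 colours do not overlap, which the choice by p favours.

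The genotype differences in standard cages were not used to choose these genes. The standard-cage arrays did enter the choice, through the spread behind each p and the mean level that defined brighter probe sets. The comparison with standard cages is therefore not fully independent of the choice. All 12 of the higher genes were also higher in cbp+/- of standard cages, with a median of 0.061, and 10 of the 12 lower genes were lower there, with a median of -0.11. The background for this is high: of 2087 brighter probe sets that were higher in all 3 enrichment pairs, 69.7% were higher in standard cages, against 52.4% of all brighter probe sets. Of 1015 lower in all 3 pairs, 71.6% were lower in standard cages, against 47.6%. The differences in standard cages were smaller. Pcdhb2 was higher there by 0.35 (SE 0.11), in 5 of 5 pairs, and Pcsk1 stood at 7.62 ± 0.15 against 7.77 ± 0.10 (SD, n = 5), lower in 4 of 5 pairs. Neither passed the threshold there (adjusted p = 1, limma).

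Promoters were searched for the CRE, since CBP is a coactivator of CREB. RefSeq promoters of assembly GRCm38.p6, 250 bases before to 50 after the annotated start, were in hand for 15561 of the tested genes and for 93 of the 123 named ones. The palindrome TGACGTCA, which reads the same on both strands, was found in 5 named genes: Btg2, Creb5, Hlf and Pcsk1, all lower in cbp+/- by their values, and Idnk, which was higher. The promoters of Pcsk1, Btg2 (an antiproliferative immediate early gene) and Idnk are shown to set genes of opposite direction side by side, with the palindrome in capitals and the rest in lower case, 5′ to 3′ on the gene's strand.
Pcsk1 (chr13:75089607-75089906, plus strand): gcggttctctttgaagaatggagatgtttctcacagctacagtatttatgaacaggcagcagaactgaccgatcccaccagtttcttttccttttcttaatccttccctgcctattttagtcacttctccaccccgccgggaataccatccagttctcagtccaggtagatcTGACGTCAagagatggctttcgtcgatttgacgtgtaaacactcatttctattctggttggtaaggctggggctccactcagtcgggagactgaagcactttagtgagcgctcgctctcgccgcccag
Btg2 (chr1:134079106-134079405, minus strand): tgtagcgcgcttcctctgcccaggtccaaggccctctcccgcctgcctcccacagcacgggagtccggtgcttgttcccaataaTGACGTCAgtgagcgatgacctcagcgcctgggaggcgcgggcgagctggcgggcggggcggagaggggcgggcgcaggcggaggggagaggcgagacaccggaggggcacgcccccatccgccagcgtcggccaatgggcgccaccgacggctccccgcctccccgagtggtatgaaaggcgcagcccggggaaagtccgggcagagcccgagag
Idnk (chr13:58157399-58157698, plus strand): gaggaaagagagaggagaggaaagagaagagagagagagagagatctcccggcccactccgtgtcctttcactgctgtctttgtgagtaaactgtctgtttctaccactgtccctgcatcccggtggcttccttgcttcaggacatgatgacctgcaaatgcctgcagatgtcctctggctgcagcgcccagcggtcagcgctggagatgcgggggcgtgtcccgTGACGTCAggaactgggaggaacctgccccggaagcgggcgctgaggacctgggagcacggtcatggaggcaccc
The palindrome starts 78 bases before the start site in Pcsk1, 166 before in Btg2 and 25 before in Idnk. It was in 2.72% of all 15561 promoters (424), in 4.74% of 190 promoters of genes higher at an unadjusted p under 0.05 (9 genes), and in 1.76% of 625 of lower genes (11 genes). The core TGACG, counted on either strand (CGTCA on the other) and contained in the palindrome, was in 28% of all promoters, 41.6% of the higher set and 18.9% of the lower set. Brighter genes hold these letters more often. Within the brighter part of the array the shares were 3.74%, 4.73% and 3.64% for the palindrome and 37.3%, 39.6% and 34.5% for the core. The median difference was 0.015 over 424 genes with the palindrome and -0.020 over 15137 without, and after quantile normalization 0.0040 and -0.0037. Within the brighter part the medians were 0.0389 with it and 0.0375 without. A match to these letters is a description of the sequence, not evidence of binding.

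The clustered protocadherin beta genes had the highest median difference of the 43 gene lists. These genes, arrayed in one cluster on chromosome 18, each encode a cadherin-like protein of the neuronal surface that takes part in self-recognition of neurites. Of 21 measured members, 20 were higher in cbp+/- and 1 lower, against 41.1% higher over all 19935 genes. The median difference was 0.20, against -0.021 over all genes, and it was 0.22, 0.27 and 0.31 in the 3 pairs. In 15 members all 3 pairs were higher (11.6% over all genes), and in 9 the groups did not overlap with cbp+/- higher (3.67% over all genes). None passed the adjusted threshold, and 4 had an unadjusted p under 0.05 in that direction, against 1.2% of all genes (5.43% in both directions, 4.23% lower).

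Per member, Pcdhb6 had log2 signals of 6.63, 6.69 and 6.64 in cbp+/- and 6.12, 6.40 and 6.10 in wild type, a difference of 0.45 (SE 0.12). Pcdhb10 had 7.01, 6.91 and 7.14 against 6.54, 6.59 and 6.66, a difference of 0.42 (SE 0.12). In both, as in Pcdhb2, the lowest cbp+/- array was above the highest wild-type array. Pcdhb12 had 7.27, 7.09 and 7.20 against 6.29, 6.69 and 6.89 (0.57, SE 0.28), and Pcdhb7 had 7.59, 7.54 and 7.62 against 7.35, 7.21 and 7.16 (0.34, SE 0.25). Pcdhb3 had 7.37, 7.59 and 7.77 against 7.01, 7.02 and 7.41, where CBP_EE_1 lay just below WT_EE_3. At the other end, Pcdhb22 had a difference of -0.037 (SE 0.16), Pcdhb15 of 0.014 (SE 0.17) and Pcdhb8 of 0.030 (SE 0.18).

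The members are near-identical in parts of their sequence and lie side by side, so their probe sets may read each other's transcripts and are not independent measurements. The median held its sign within each alternative tried, while its size varied. It was 0.25 after quantile normalization, 0.18 to 0.25 when 1 array was left out, and 0.19 in the set that holds the first and second replicates. With array weights it was 0.14, and with dim probe sets left out 0.33. In standard cages the median was 0.13 with 18 of 21 members higher. Other adhesion genes lay on both sides of 0. Of 18 cadherins, 10 were higher and 8 lower with a median of 0.0068. Cdh4, R-cadherin, had 6.41, 6.35 and 6.26 in cbp+/- against 6.74, 6.66 and 6.66 in wild type, lower in 3 of 3 pairs; the difference was -0.35 (SE 0.10, adjusted p = 0.924). In standard cages Cdh4 differed by -0.19 (SE 0.07) and was lower in 5 of 5 pairs. Cdh20 was lower by a difference of -0.15 (SE 0.06) under enrichment and of -0.16 in standard cages.

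**Figure D3:**
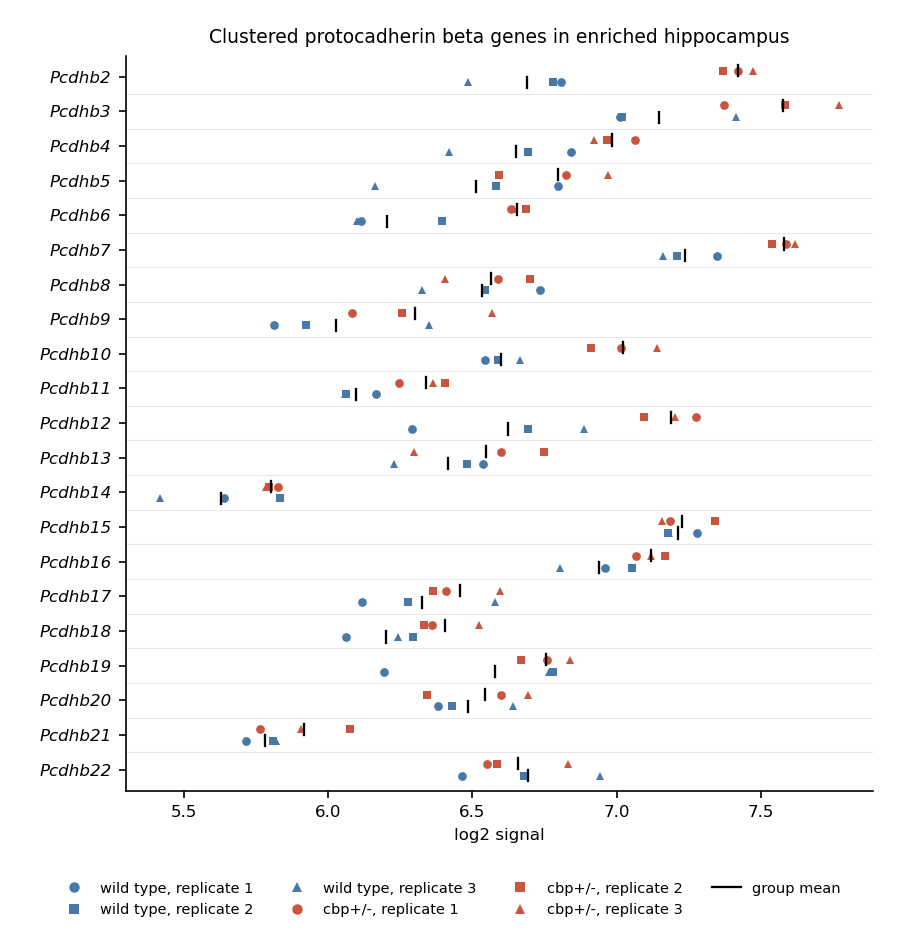
Log2 signal (x axis) of the 21 clustered protocadherin beta genes on the 6 enrichment arrays; points are arrays, shapes are replicate numbers, colours are genotypes and black bars are means of 3 arrays. The cbp+/- mean lies to the right of the wild-type mean in every member but Pcdhb22, and 9 members show no overlap.

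Of 17 genes for CBP, p300, the CREB and ATF factors, their coactivators and kinases, 8 were higher and 9 lower, with a median of -0.015. Groups did not overlap for 1 of them, lower (7.03% over all genes): Creb5, a CRE-binding factor, had log2 signals of 6.32, 6.36 and 6.36 in cbp+/- and 6.49, 6.46 and 6.50 in wild type (-0.13, SE 0.08). Creb1, the founding member, differed by -0.061 (SE 0.09), and Camk4, a kinase that phosphorylates CREB, by -0.16 (SE 0.11) with all 3 pairs lower. Among 16 lysine acetyltransferases the median was -0.016, with 7 higher and 9 lower. In 5 of them the groups did not overlap (10.7% over all genes), Kat5 and Kat2a with cbp+/- higher and Kat2b, Ncoa2 and Ncoa1 lower. Kat5, the catalytic subunit of the TIP60 complex, had 7.83, 7.79 and 8.09 against 7.64, 7.64 and 7.61, so that the groups did not overlap, and differed by 0.27 (SE 0.09). Kat2b, also called PCAF, a partner of CBP, was lower by a difference of -0.14 (SE 0.08), as were the coactivators Ncoa2 (-0.17, SE 0.13) and Ncoa1 (-0.14, SE 0.12), while Kat2a, also called GCN5, stood at 0.11 (SE 0.14). Of 18 deacetylases 12 were higher, with a median of 0.090 that was -0.018 without WT_EE_3. The 36 enzymes of histone and DNA methylation had a median of 0.052 and 24 were higher. Among them Kdm6a, a demethylase of histone H3, had 7.37, 7.24 and 7.45 against 6.96, 7.18 and 7.15 (0.26, SE 0.12).

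The signs of activity-regulated genes, many of them CREB targets, depended on the arrays used. Of 24 immediate early transcription factors, 9 were higher and 15 lower with a median of -0.027, which was -0.17 without WT_EE_3 (2 of 24 higher) and 0.076 without WT_EE_1. Within the set of first and second replicates it was -0.090 (4 of 24 higher), and with array sets as a block -0.15. Fos had log2 signals of 6.88, 6.91 and 6.55 in cbp+/- and 7.30, 7.04 and 6.36 in wild type. It was lower in pairs 1 and 2 and higher in pair 3, and the difference was -0.12 (SE 0.20). Arc, a synaptic effector, had 8.60, 8.53 and 8.76 against 9.05, 8.71 and 8.09, with the same split of pairs and a difference of 0.013 (SE 0.38). Without WT_EE_3 it was -0.25, and within the set of first and second replicates -0.32. In 2 of the 24 the groups did not overlap, Btg2 (-0.21, SE 0.12) and Ier2 (-0.12, SE 0.07), both lower in cbp+/- (7.03% over all genes).

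Of 27 activity-regulated effectors 13 were higher and 14 lower, with a median of -0.0016 that was -0.15 without WT_EE_3 (6 of 27 higher), 0.083 without WT_EE_1 and -0.069 within the set of first and second replicates (9 of 27 higher). Besides Pcsk1, Homer1, a scaffold of the postsynaptic density, had 9.16, 9.23 and 9.12 in cbp+/- against 9.47, 9.32 and 9.29 in wild type (-0.19, SE 0.09), and Inhba, a subunit of activin, had 6.56, 6.62 and 6.59 against 6.88, 6.82 and 6.66 (-0.20, SE 0.10). Neither gene's groups overlapped. In the list of 27 effectors 3 genes were lower and 1 higher without overlap (7.03% and 3.67% over all genes). Of 18 neuropeptides and secreted factors 8 were higher and 10 lower. Penk, the enkephalin precursor, had 9.19, 9.14 and 9.74 against 9.24, 9.40 and 10.18. It was lower in 3 of 3 pairs, by differences from -0.44 to -0.052, but replicate 3 of each genotype was high and the groups overlapped. The difference of -0.25 (SE 0.32, adjusted p = 0.976) became 0.033 without WT_EE_3. In standard cages Penk was lower in 5 of 5 pairs, with a difference of -0.43. Npy stood at -0.016 (SE 0.22), and Nts, the neurotensin precursor, was higher by 0.26 to 0.29 in each of the pairs.

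Neurotrophins and their receptors had the lowest median of the 43 lists, -0.12, with 10 of 14 genes lower, 6 of them in all 3 pairs (19.2% over all genes), and no gene without overlap. The median was -0.043 without CBP_EE_3 and -0.049 without WT_EE_1. After quantile normalization it was -0.084 with 13 of 14 lower. Potassium channels, oligodendrocyte progenitors (-0.13 each), dentate granule cells (-0.12), axon guidance (-0.096) and neocortex genes (-0.090) then had lower medians. Bdnf, which supports synapses and neuronal survival, had log2 signals of 7.18, 7.23 and 7.22 in cbp+/- and 7.29, 7.25 and 7.09 in wild type. Its difference was -0.0025 (SE 0.12) and changed sign with the array left out. Sorcs1, a sortilin-family sorting receptor, was lower in 3 of 3 pairs (-0.22, SE 0.10), and so was the neurotrophin receptor Ngfr (-0.22, SE 0.14). Ntrk3, the receptor for NT-3, had the opposite sign (0.18, SE 0.12), with pair 2 lower. Among 20 IGF, VEGF and FGF genes the median was -0.0033. Fgfr2, an FGF receptor, had 7.33, 7.21 and 7.20 against 7.48, 7.59 and 7.37 (-0.23, SE 0.12), with no overlap.

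Of 23 genes of newborn granule neurons 15 were lower and 34.8% higher, against 41.1% higher over all genes. In 9 of the 23 all 3 pairs were lower (19.2% over all genes), and the median was -0.069. The median was -0.032 without CBP_EE_3, -0.018 with dim probe sets left out, -0.011 with array sets as a block and -0.0079 with array weights. Sox11, a transcription factor of immature neurons, had log2 signals of 7.03, 6.77 and 7.27 in cbp+/- and 7.24, 7.07 and 7.73 in wild type. It was lower in each pair, by differences from -0.46 to -0.20, while the groups overlapped (-0.32, SE 0.16). Without WT_EE_3 the difference was -0.13. In standard cages it was lower in 5 of 5 pairs (-0.28). Sox4, its relative, differed by -0.21 (SE 0.16), and Igfbpl1 by -0.25 (SE 0.15). Dcx, doublecortin, had 6.85, 6.77 and 7.02 against 7.05, 6.84 and 7.11, lower in 3 of 3 pairs with a difference of -0.11 (SE 0.12). Other members of the list went the other way, such as Gap43 (0.17, SE 0.20) and Tubb2b (0.15, SE 0.12). Of 27 genes of proliferating cells 18 were lower and 33.3% higher (41.1% higher over all genes), with a median of -0.054 that was -0.0015 after quantile normalization. Ccnd1, a cyclin of the G1 phase, had 7.81, 7.86 and 7.92 against 8.05, 8.18 and 8.16 (-0.27, SE 0.11), with no overlap. Mcm7, a subunit of the replicative helicase, was higher (0.23, SE 0.09), and Nes, nestin, a filament of neural stem cells, was lower and dim (-0.28, SE 0.11).

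Among mature cell types, 13 of 17 dentate granule cell genes were lower, with a median of -0.096. It was -0.12 after quantile normalization, -0.031 within the set of first and second replicates and -0.0063 with array sets as a block. Prox1, a defining factor of these cells, was about equal in pair 1, -0.069 in pair 2 and -0.59 in pair 3. Glis3 had log2 signals of 7.10, 7.01 and 7.07 against 7.28, 7.29 and 7.10 (-0.16, SE 0.06). The median was 0.013 over 12 genes of CA1 pyramidal cells and 0.00030 over 15 genes of CA3 and CA2. Wfs1, a CA1 marker, had 8.13, 8.04 and 7.89 against 8.38, 8.30 and 8.14, lower in 3 of 3 pairs (-0.25, SE 0.24), and Pcp4, a CA2 and dentate marker, had 10.76, 10.67 and 10.91 against 10.93, 10.93 and 11.44 (-0.32, SE 0.14). Neither overlapped. Of genes of neighbouring tissue, 10 of 13 neocortex genes were lower, with a median difference of -0.071 and a median level of 8.02, and 8 of 11 striatum genes, with a median difference of -0.087 and a median level of 6.88. The 19 choroid plexus genes had a median of -0.11 (-0.044 after quantile normalization), with Ttr at 7.81, 8.04 and 8.03 in cbp+/- and 8.49, 9.56 and 7.34 in wild type. In standard cages all 19 choroid plexus genes were higher in cbp+/- (median 0.18). The part of such carried-over tissue in other differences was not tested.

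Of 27 potassium channel genes 17 were lower and 37% higher, against 41.1% higher over all genes. In 10 of the 27 all 3 pairs were lower (19.2% over all genes), and the median was -0.072. It was -0.13 after quantile normalization, -0.11 without WT_EE_3, -0.029 without WT_EE_2 and -0.025 with array sets as a block. Kcnma1, the large-conductance calcium-activated channel, had log2 signals of 9.45, 9.46 and 9.38 in cbp+/- and 9.52, 9.55 and 9.58 in wild type (-0.12, SE 0.07), and Kcnh7 and Kcnc2 were each lower by differences of -0.16, all without overlap. In the potassium channel list 4 genes were lower and 1 higher without overlap (7.03% and 3.67% over all genes). Of 24 sodium, calcium and HCN channel genes 17 were lower (median -0.052, -0.093 without WT_EE_3 and -0.019 without CBP_EE_3), while Scn2b, an auxiliary sodium channel subunit, was higher in 3 of 3 pairs (0.23, SE 0.10). Of 39 axon guidance genes 29 were lower, with a median of -0.058 (-0.020 with array sets as a block), and in 9 the groups did not overlap with cbp+/- lower (7.03% over all genes). Unc5d, a netrin receptor, had 7.08, 7.09 and 7.09 against 7.40, 7.24 and 7.59 (-0.32, SE 0.16), and Plxnc1, a semaphorin receptor, was lower by a difference of -0.19 (SE 0.10). Of 27 monoamine and acetylcholine receptors 20 were lower (median -0.053, -0.093 without WT_EE_3 and -0.021 without CBP_EE_3), led by Chrm5, a muscarinic receptor (-0.34, SE 0.12), and Htr4, a serotonin receptor (-0.22, SE 0.09). The median was 0.00050 for 29 glutamate receptor genes (-0.051 without WT_EE_3 to 0.035 without WT_EE_2) and 0.0050 for 27 GABA signalling genes (-0.031 without CBP_EE_1 to 0.068 without CBP_EE_3). For 36 vesicle and scaffold genes, 23 of them higher, it was 0.022, and ran from -0.069 without WT_EE_3 (8 of 36 higher) to 0.085 without WT_EE_2.

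Of 12 genes of oligodendrocyte progenitors 10 were lower, with a median of -0.12 that was -0.044 without CBP_EE_3, and 6 were lower in all 3 pairs (19.2% over all genes). Enpp6, an early marker of differentiating cells, had log2 signals of 5.89, 5.94 and 5.88 in cbp+/- and 6.04, 6.03 and 6.16 in wild type (-0.17, SE 0.07), and Sox6 had 7.13, 7.12 and 7.11 against 7.30, 7.17 and 7.26 (-0.13, SE 0.05). Pdgfra, the receptor that defines these cells, was lower in 3 of 3 pairs (-0.17, SE 0.14), whereas Cspg4 (NG2) was not (-0.028, SE 0.18). The 20 genes of mature oligodendrocytes and myelin had a median of 0.011, with -0.13 in pair 2 and 0.24 in pair 3. Astrocyte genes split in the same way (17 genes, median 0.016, -0.043 in pair 2 and 0.14 in pair 3), and in both lists WT_EE_3 had the lowest level of the 6 arrays. Microglial genes had a median of 0.0044. Of 21 genes of endothelial cells and pericytes 13 were higher (median 0.057). Vtn, vitronectin, made by pericytes, had 9.49, 9.66 and 9.59 against 9.33, 9.19 and 8.91, with no overlap (0.43, SE 0.18), and in standard cages was higher in 5 of 5 pairs (0.25).

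Glucocorticoid-responsive genes were the second list by median, 0.15, with 15 of 19 higher, 10 in all 3 pairs (11.6% over all genes) and 5 without overlap (3.67% over all genes). Tsc22d1 had log2 signals of 9.62, 9.52 and 9.75 in cbp+/- and 9.30, 9.49 and 9.12 in wild type (0.33, SE 0.13). Sult1a1, a sulfotransferase, had 6.57, 6.65 and 6.80 against 6.38, 6.34 and 6.46 (0.28, SE 0.19). Lcn2, the iron-binding lipocalin, had the largest difference of all probe sets, 1.13 (SE 0.56), with 5.875, 6.265 and 7.902 against 5.661, 5.595 and 5.404. Most of it lay on CBP_EE_3, and the pairs differed by 0.21, 0.67 and 2.50. Other classic members were flat or lower, such as Sgk1 (-0.018, SE 0.27), Per1 (0.024, SE 0.26) and Pdk4 (-0.30, SE 0.14), and the receptor gene Nr3c1 itself differed by -0.063 (SE 0.13). The median was 0.098 without WT_EE_3 (11 of 19 higher), 0.082 within the set of first and second replicates, 0.067 with array weights and 0.017 with array sets as a block. In standard cages it was -0.015, with 8 of 19 higher.

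Of 31 oxidative phosphorylation genes 24 were higher (median 0.12), 13 in all 3 pairs (11.6% over all genes), but the median ran from -0.044 without CBP_EE_3 to 0.18 without CBP_EE_2. Sdha, a subunit of succinate dehydrogenase, had 10.86, 10.96 and 10.74 against 10.81, 10.86 and 10.29, where WT_EE_3 was the low array. Of 25 chaperones of the heat shock and endoplasmic reticulum responses 21 were higher (median 0.087, 0.038 after quantile normalization). However, only 2 of the 25 were higher in all 3 pairs (11.6% over all genes), and 0 had groups that did not overlap. Hspa8, the constitutive HSC70, differed by 0.12 (SE 0.06). Ribosomal protein genes (25, median 0.063) ran from -0.071 without WT_EE_1 to 0.23 without WT_EE_3. Core clock genes (18, median -0.0054) ran from -0.10 without WT_EE_3 to 0.069 without WT_EE_2, and interferon-stimulated genes (19, median -0.029) from -0.053 without WT_EE_2 to 0.013 without WT_EE_3.

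Of the 43 lists, 4 had medians above 0 and 7 below 0 in every setting compared, that is in each of the 3 pairs, after quantile normalization, with each array left out, in the fit blocked on the 4 array sets and within the set of first and second replicates. The 4 were the protocadherin beta, glucocorticoid-responsive, chaperone and methylation enzyme lists. The 7 were axon guidance, neurotrophins, newborn granule neurons, oligodendrocyte progenitors, potassium channels, sodium, calcium and HCN channels, and striatal genes. The other 32 changed sign in at least 1 setting. Signs were taken against 0 and not against all genes, whose medians were -0.037, 0.0051 and -0.040 in the 3 pairs. In pair 2 the methylation enzyme list had 0.00035 and the chaperone list 0.0051, at or below all genes. Newborn granule neurons in pair 1 (-0.027) and both channel lists in pair 3 (-0.020 each) lay above all genes.

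**Figure D4:**
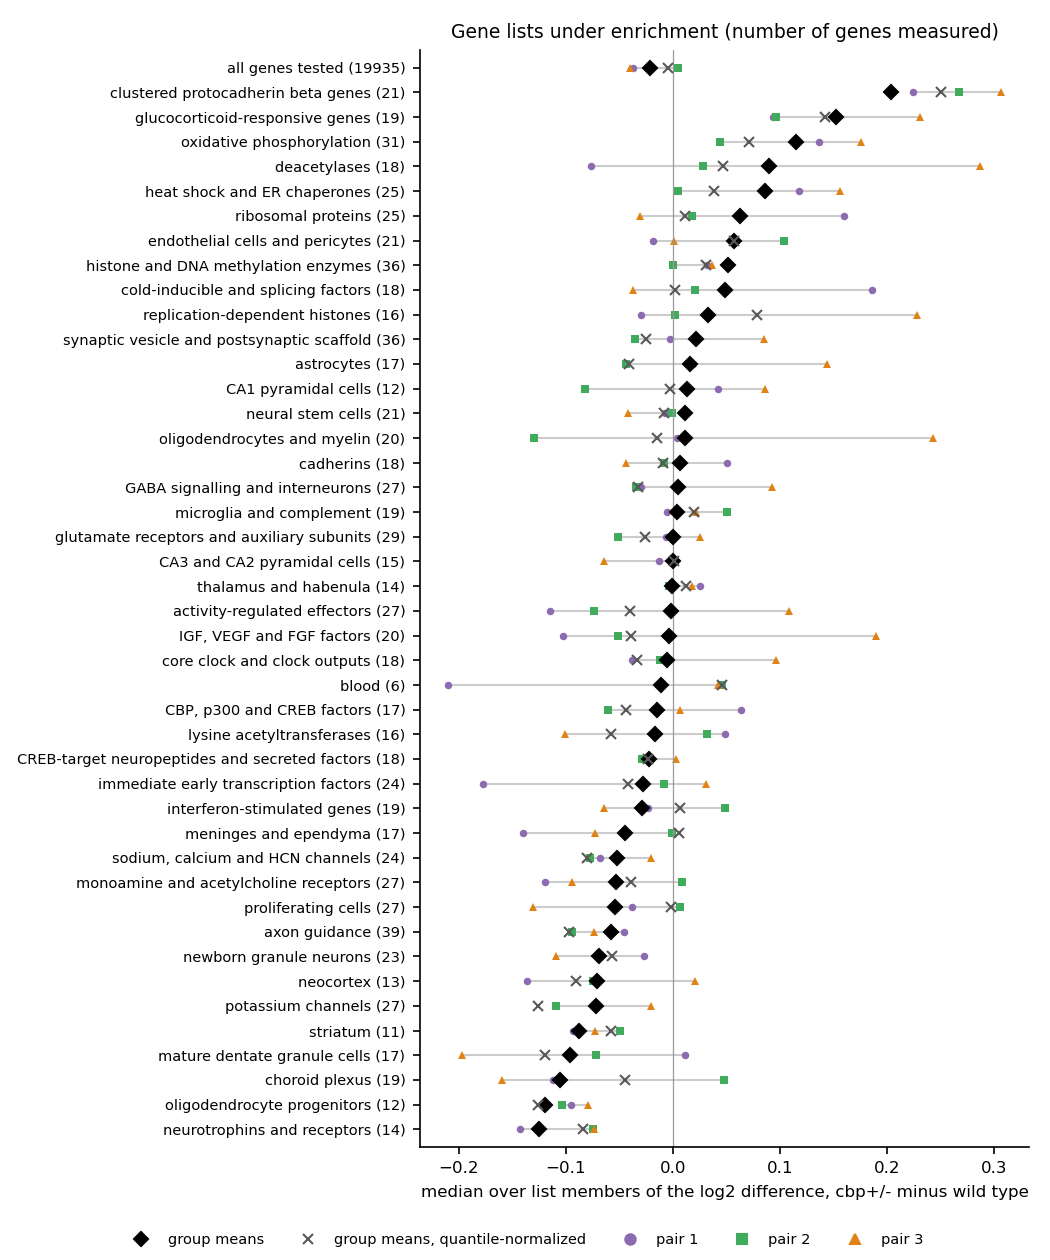
Median log2 difference (cbp+/- minus wild type, x axis) over the measured members of each of 43 gene lists and over all 19935 genes, for the group means, the quantile-normalized group means and each same-numbered pair. The protocadherin beta list lies farthest to the right at 0.20 and neurotrophins with their receptors farthest to the left at -0.12, and for many lists the 3 pairs lie on both sides of 0.

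The genotype difference was set beside that in standard cages, which shares no array with it. In standard cages limma called 0 of 21780 probe sets (0%), and 215 had an unadjusted p under 0.05 (0.987%; 957 or 4.39% with the replicate block). The median absolute difference was 0.036 there and 0.073 under enrichment (5 and 3 arrays per genotype). Across 19935 genes, which are not independent replicates, both differences correlated weakly (Pearson r = 0.23, Spearman rho = 0.20), and 55.2% of genes had the same sign. The test of the difference itself, the genotype by housing interaction, called 0 of 21780 probe sets (0%), with 579 at an unadjusted p under 0.05 (2.66%; 1441 or 6.62% with the replicate block) and a smallest adjusted p of 1. Among brighter probe sets with all 3 enrichment pairs of one sign, the 3 genes per direction with the smallest interaction p are listed. They were chosen on that contrast and serve as a description. On the higher side they were Serpina3n, a secreted protease inhibitor of reactive astrocytes (0.28 under enrichment, -0.39 in standard cages), Mtmr10 (0.086 and -0.18) and Fbxl20 (0.31 and 0.050). On the lower side they were Fam160a1 (-0.16 and 0.16), Tlcd3a (-0.13 and 0.061) and Pelo, a ribosome rescue factor (-0.12 and 0.094).

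**Figure D5:**
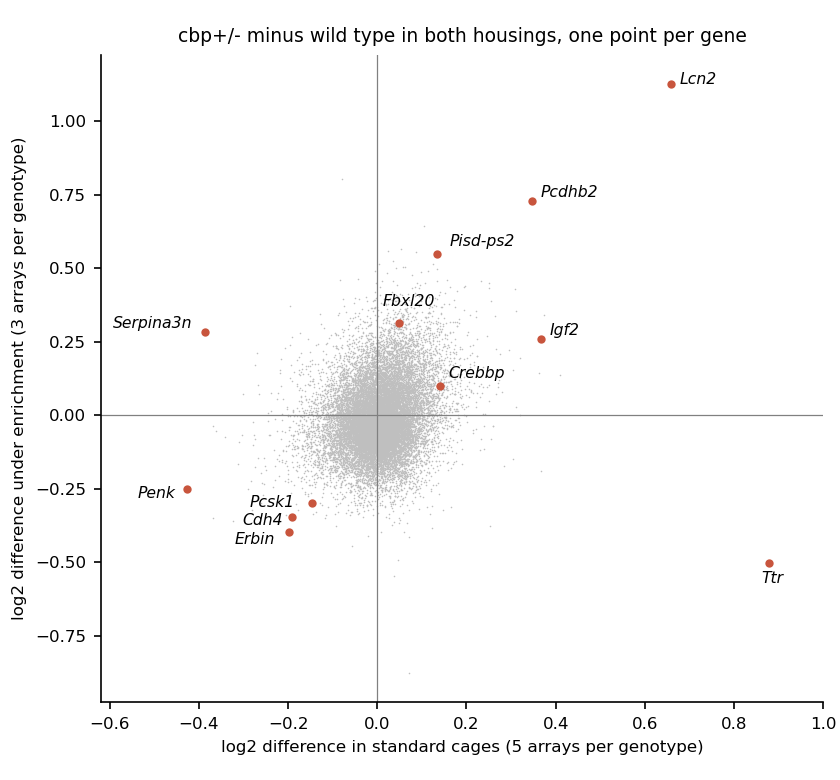
Log2 difference cbp+/- minus wild type in standard cages (x axis, 5 arrays per genotype) and under enrichment (y axis, 3 arrays per genotype). Each grey point is 1 gene, and red points mark some of the genes named in the text and Igf2. Pcdhb2 and Lcn2 are high on both axes, Penk, Pcsk1, Cdh4 and Erbin are low on both, and Ttr and Serpina3n lie on opposite sides.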

How the data were processed

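The labels' protocols say that RNA came from single hippocampi, that 4 animals in equal amounts made 1 pool per array, and that GeneSpring GX was used. RMA is named per the submitters' processing notes. For software versions, a test and a baseline transformation nothing is given in the sources used here. The values deposited by the authors are linear intensities for each probe set, and whether they were centred before the log was undone stays unknown. Array medians over all deposited probe sets ran from 77.65 to 85.46 in the 6 enrichment arrays. The number of arrays limits the precision, and no detection call was used.

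The deposit holds 28815 probe sets. The platform table lists 23385 of them, of which 21780 had exactly 1 gene symbol (19935 genes, 21689 probe sets matched to RefSeq by gene number) and 1605 had several; 5430 were not listed. Log2 of the intensity was fitted in R 4.3.3 with limma 3.58.1 (lmFit with 4 group means on all 16 arrays, 12 residual degrees of freedom, eBayes, Benjamini-Hochberg over 21780 probe sets, threshold 0.05). The procedure was tested on simulated data with independent noise and with planted differences larger than most seen here. The simulation lacked the deviations that these arrays share, so it does not show how the fit performs on them. Pools are separate animals per the labels. Same-numbered arrays deviated together in each pair (correlation of deviations from the group means 0.257, 0.306 and 0.629 under enrichment, 0.544 to 0.767 in standard cages), all over 0.1, the bound used to treat the numbers as pairs. The labels do not say what a number shares. The highest correlation with another number was larger in 2 of the 8 pairs, 0.663 for enrichment number 2 and 0.621 for standard-cage number 1, so the pairing is uncertain. Alternatives were the replicate block, only the compared arrays, quantile normalization, dim probe sets left out, array weights, a variance trend, array sets as a block, quantile normalization with the replicate block, and each array left out. The fit within 1 array set and the unadjusted counts were added after seeing the data.

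For a gene with several probe sets the brightest was used in the lists. Of 990 list entries 893 matched. Genes were named by a rule: 9 fixed genes, the 12 per direction with the smallest p among brighter probe sets (mean log2 at or above 6.588) of one sign in 3 of 3 pairs, the 3 per direction at any brightness, the 2 members of each list with the smallest p, and the 3 per direction in the interaction. Further list members, Lcn2 and the neighbours of Crebbp were chosen after their values were seen. The members and lists were chosen with earlier results of these data known. Promoters came from RefSeq, GRCm38.p6.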

Additional observations from a re-analysis of the deposited data

Results flagged for a closer look

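Among 41 named genes, 82 groups of 5 standard-cage arrays were checked for an array far from the others, and 3 were found; chance gives about 1 in 20 groups. Bdnf was low on WT_SC_4 (6.621, the nearest other array at 6.884), Penk was low on CBP_SC_4 (7.782, nearest 8.479), and Tlcd3a was high on CBP_SC_3 (7.653, nearest 7.525). None of these arrays belongs to the enrichment groups, which with 3 arrays each were not checked.

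In 3 genes every pair under enrichment differed one way and every pair in standard cages the other. One sign in all 3 enrichment pairs was required when these genes were picked, so that part of the pattern was fixed. The choice by interaction p also favours standard-cage pairs of the other sign. Mtmr10 was higher in cbp+/- under enrichment and lower in standard cages, an interaction of 0.2618 (log2). Fam160a1 had the opposite pattern, -0.3185, as did Tlcd3a, -0.1936. These genes were selected by their interaction p, and with an adjusted p of 1 (limma) in each of them the interaction did not pass the threshold.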

How the results depend on the processing

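No probe set passed the adjusted threshold in the enrichment contrast or in the interaction under any alternative but array weights, which called 2474 and 429. In standard cages none passed under any alternative. With the replicate block the counts stayed at 0 in all of the comparisons. The count at an unadjusted p under 0.05 in enrichment, 1139 as reported, was 2838 with the replicate block on all 16 arrays, 2476 with quantile normalization and the replicate block, 2095 with array sets as a block, 182 with dim probe sets left out (fewer were tested) and 6114 with array weights, and ran from 493 to 1826 with 1 array left out. The cause was not tested. Of 3167 alternative values for 123 named genes, 3078 kept their direction and side of the threshold, 55 passed the threshold with array weights, and 34 in 16 genes changed sign. Many of the 3167 could not change sign. Leaving out a standard-cage array or dim probe sets, using only the compared arrays, the replicate block or a variance trend keeps the enrichment difference by construction. The 3078 are therefore no measure of stability. With 1 array left out, Ep300 ran from -0.07494 to 0.02175, Penk from -0.4446 to 0.03341, Ttr from -1.064 to 0.04708. In the same fits the ranges were Bdnf from -0.06047 to 0.0372, Npy from -0.1982 to 0.09192, Fos from -0.3928 to 0.07906, Arc from -0.2517 to 0.23, Syp from -0.01977 to 0.5092 and Cx3cr1 from -0.1914 to 0.007197. With array weights the values were 0.02184 for Ep300, -0.1134 for Arc, -0.03504 for Sirt7, -0.06513 for Sirt4, -0.0341 for Cck, -0.02975 for Ntrk3, -0.00384 for Mcm7, -0.05232 for Glul and 0.002 for Nr1d2. With array sets as a block they were 0.1296 for Ep300, -0.351 for Arc, -0.06249 for Cck, -0.04807 for Glul and 0.01902 for Cx3cr1, and within the first array set 0.0431 for Ep300, -0.3193 for Arc, -0.02486 for Cck and -0.03567 for Glul. Arc was -0.02562 after quantile normalization, with and without the replicate block. Every one of these genes had an adjusted p over 0.9 as reported.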
